A study of Mus musculus with 22 samples.

Results

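The chromosome 14 stretch described here lies just before the T-cell receptor alpha/delta locus (Tcra/Tcrd) and holds the array probes whose midpoint falls between 40 and 47.34 Mb of chromosome 14 in the coordinates of the array files. It has 813 of the 232626 probes that carry a position. The probes were chosen by the position of the gain in the log2 ratios of these same arrays, so the level of the stretch, its calls, its summit and its edges are given as descriptions, with no test between the groups. Genomic DNA of thymocytes, the T-cell precursors of the thymus, from 22 Atm-deficient mice was hybridised against wildtype thymocyte DNA. The lymphoma group is 8 Atm-deficient mice labelled as having a T-cell lymphoma, and the no-lymphoma group is 14 Atm-deficient mice labelled as free of findings by eye. All 22 mice are Atm-deficient and were untreated, and each array carries the mouse's DNA in Cy5 and the wildtype DNA in Cy3. The labels name no dye swap among the 22 arrays, so by the labels an effect of the dye and one of the genotype cannot be told apart. Strain, age and sex are not in the labels, which do not say which part of Atm was altered, and do not give the share of tumour cells in a sample.

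Atm is a kinase that reports double-strand breaks in DNA to the cell cycle and repair machinery, and thymocytes make such breaks on purpose when they assemble their receptor genes. The Tcra/Tcrd locus is cut and rejoined in nearly every thymocyte, and chromosome 14 carrying this locus is known to break and to be amplified in thymic lymphomas of Atm-deficient mice. Comparative genomic hybridisation measures the amount of each DNA segment relative to the wildtype DNA, whatever the chromosome arrangement that carries it. Unless stated, values are the log2 of the Atm-deficient over the wildtype signal, where 1 stands for 2 times the wildtype amount. A segment is a run of neighbouring probes with a shared level found by least-squares partitioning. A segment of 0.25 or more was called a gain, one of -0.25 or less a loss, and one of 1 or more amplified.

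The probes are oligonucleotides of 45 to 60 bases, 746 of them of 60 bases, with a median distance of 6748 bp between neighbours. The probes of Psmc6 and Gnpnat1 are shown because these genes gave the highest lymphoma means, the pairs at the gap before 40.07 Mb and at the step before 38.79 Mb because several arrays change level there, and the Bmp4 probe because it stayed low. All are in the orientation of the array files and in lower case. No strand and no exon or intron annotation was used.
Psmc6, chr14:40649212-40649271: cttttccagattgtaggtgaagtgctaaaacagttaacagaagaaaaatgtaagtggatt
Psmc6, chr14:40655708-40655767: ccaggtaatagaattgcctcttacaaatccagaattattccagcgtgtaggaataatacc
Psmc6, chr14:40659463-40659522: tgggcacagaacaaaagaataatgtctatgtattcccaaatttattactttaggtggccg
Gnpnat1, chr14:40698475-40698534: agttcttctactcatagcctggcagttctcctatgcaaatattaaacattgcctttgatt
Gnpnat1, chr14:40701918-40701977: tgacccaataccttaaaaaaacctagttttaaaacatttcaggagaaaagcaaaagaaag
Gnpnat1, chr14:40706693-40706752: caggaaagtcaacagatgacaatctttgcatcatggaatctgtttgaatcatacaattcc
Last probe before the gap, chr14:39915962-39916021: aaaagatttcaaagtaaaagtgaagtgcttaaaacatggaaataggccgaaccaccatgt
First probe after the gap, chr14:40072611-40072670: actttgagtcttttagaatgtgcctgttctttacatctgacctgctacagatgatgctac
Probe before the 38.79 Mb step, chr14:38702173-38702232: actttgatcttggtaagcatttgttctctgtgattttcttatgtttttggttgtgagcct
Probe after that step, chr14:38791444-38791490: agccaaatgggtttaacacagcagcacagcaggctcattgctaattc
Bmp4, chr14:41704590-41704641: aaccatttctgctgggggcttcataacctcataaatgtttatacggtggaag

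The array DNA was cut with AluI and RsaI, enzymes that recognise AGCT and GTAC (both sites read the same on either strand), and 0 of the 813 probes hold either site. Over all probes 0.0219% hold AGCT and 0.0138% hold GTAC, so these letters are rare on the whole array. The GC content was 36.2% ± 3.22 in the stretch (SD over 813 probes) and 36.6% ± 2.69 over autosomal probes. The sources used here do not give the build behind the coordinates. Only 3 of the probes lie in a promoter window of the RefSeq tables (GRCm38.p6), and all 3 have another start there than in the array files. One example is the probe at chr14:42994019-42994078 of the array files, named BC046994, which falls in the promoter window of Ktn1, a kinesin-binding membrane protein, at chr14:47663506-47663805 of GRCm38.p6 (plus strand). It is printed to show where the probe, in capitals, lies in that window.
Ktn1 promoter window: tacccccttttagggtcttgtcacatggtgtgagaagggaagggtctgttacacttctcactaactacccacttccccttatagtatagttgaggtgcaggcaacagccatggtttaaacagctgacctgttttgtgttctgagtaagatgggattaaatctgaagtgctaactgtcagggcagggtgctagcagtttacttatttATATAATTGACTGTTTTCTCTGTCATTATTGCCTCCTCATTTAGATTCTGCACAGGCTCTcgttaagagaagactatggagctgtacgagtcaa
This probe read 1.64 ± 0.39 in lymphoma mice, against 0.11 ± 0.53 in no-lymphoma mice (SD, n = 8 and n = 14).

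The noise per array, taken from differences between neighbouring probes, ran from 0.15 to 0.37 in lymphoma arrays and from 0.14 to 0.55 in no-lymphoma arrays. The array files place the 22 scans in 6 batches, of which batches 2 and 4 hold no-lymphoma arrays alone. Of the 231 pairs of arrays 8 correlated under -0.3 over autosomal probes (lowest -0.48), and all 8 involve the array labelled no-lymphoma mouse 3, 4 or 9. Since the labels name both dyes throughout, ratios were kept in the labelled direction. The gene Atm has 12 probes, and the one on chromosome 9 from 53461029 to 53461088 is given here because its sign differed between arrays. It read above wildtype, at 0.95 to 1.32, in the 8 lymphoma arrays, and at 0.08 to 1.70 (1.695 in mouse 9) in 11 no-lymphoma arrays. It read -1.08, -0.72 and -0.63 in no-lymphoma arrays 1, 3 and 4 as labelled, which make up scan batch 2. For the main levels and the highest genes, overlaps between mice that change when the sign of these 3 arrays is turned are also given. This was a choice made after seeing the data. Precision is limited by the number of mice, each measured on 1 array, and p-values measure the spread between mice.

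The stretch was gained in all 8 lymphomas. Its mean level in lymphoma mice was 1.37 at the lowest, 1.77 at the median and 2.39 at the highest, against -0.71, 0.0080 and 1.41 in no-lymphoma mice. All lymphoma mice lay above 13 of the 14 no-lymphoma mice, and no-lymphoma mouse 11, at 1.41, lay within the lymphoma range. The group means were 1.78 ± 0.38 in lymphoma mice, against 0.18 ± 0.50 in no-lymphoma mice (SD, n = 8 and n = 14), a difference of 1.603. Per mouse the lymphoma levels amount to between 2.59 and 5.24 times the wildtype amount. A ratio of bulk DNA averages over all cells of a sample, so fewer cells with the gain and fewer copies per cell cannot be told apart.

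Counted by mouse, a gain over at least 50% of the 813 probes was called in 8 of 8 lymphoma mice, against 2 of 14 no-lymphoma mice (9 and 11). In each lymphoma mouse but number 2 the gain covered 100% of the probes, and in lymphoma mouse 2 it covered 99.3%. Of the 813 probes 807 lay in a gain in all 8 lymphoma mice, while 0.435% of all autosomal probes did. Amplified segments covered 163 of the 813 probes in all 8 lymphoma mice (0.124% of autosomal probes) and every probe in at least 1 of them (3.67% of autosomal probes). In no-lymphoma mice 401 probes lay in a gain in 3 or more of 14 (0.282% of autosomal probes), and 19 in 4 or more (0.0427%). Segments of 1 or more in at least 1 no-lymphoma mouse covered all 813 (0.89% of autosomal probes). A loss in at least 1 no-lymphoma mouse covered all 813 (9.93% of autosomal probes), which is the loss of the array labelled no-lymphoma mouse 1. These counts restate the contrast that chose the stretch.

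**Figure D1:**
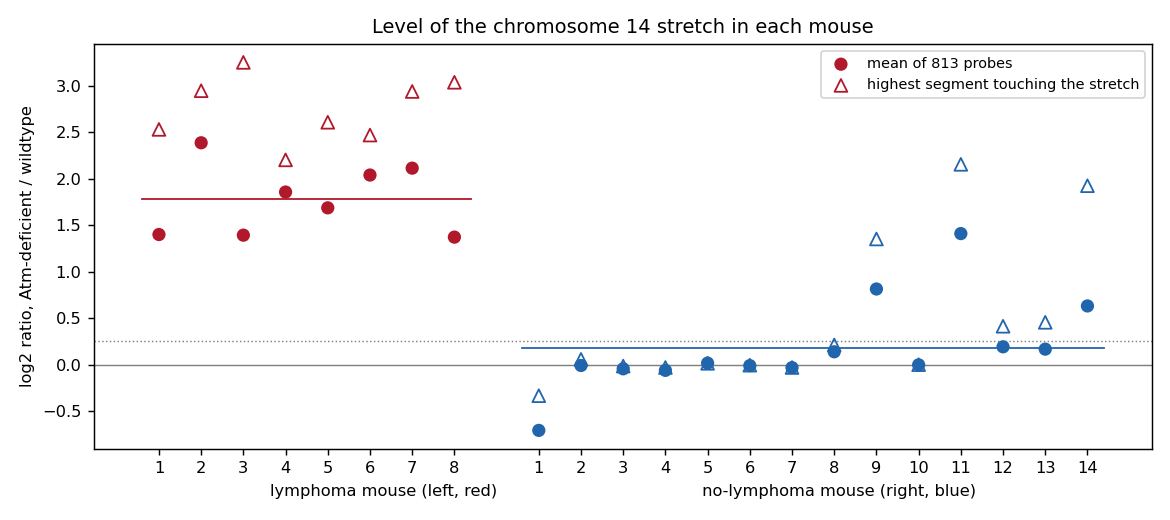
Each mouse is given by the mean log2 ratio of the stretch (filled circles) and by its highest segment that touches the stretch (open triangles). Lymphoma mice stand on the left in red and no-lymphoma mice on the right in blue, solid lines are group means of the filled circles, and the dotted line is the gain threshold of 0.25. All lymphoma circles lie between 1.37 and 2.39, and no-lymphoma mouse 11 at 1.41 is the highest of the other group.

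Within batches that hold both groups the lymphoma minus no-lymphoma difference of the mean level was 1.56, 2.03, 0.70 and 1.91 in batches 1, 3, 5 and 6. The lowest value came from batch 5, where lymphoma mouse 8 (1.37) was set against no-lymphoma mice 7, 11 and 14 (-0.03, 1.41 and 0.63). Blocking on scan batch gave 1.58. The difference was 1.49 with the sign of scan batch 2 turned, 1.70 with the sign of the arrays labelled no-lymphoma mouse 3, 4 and 9 turned, and 1.54 (an alternative added after seeing the data) with the array labelled no-lymphoma mouse 1 left out. The log2 red signal was averaged over the probes of the stretch, relative to the autosomal median of the array. It was 1.56 ± 0.41 in lymphoma mice, against 0.04 ± 0.42 in no-lymphoma mice. The green, wildtype channel stood at -0.23 ± 0.05 in lymphoma arrays and -0.14 ± 0.20 in no-lymphoma arrays. The array labelled no-lymphoma mouse 1 was the exception, with -0.18 in red and 0.53 in green. No spot of the stretch was saturated in any array.

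The gain was not level along the stretch. In lymphoma mice the mean was 2.53 ± 0.49 from 40 to 40.5 Mb and 2.63 ± 0.42 from 40.5 to 41.0 Mb. It was 2.16 ± 0.54 from 41.0 to 41.5 Mb, 1.85 ± 0.64 from 41.5 to 42.0 Mb, and between 1.49 and 1.78 in each bin of 0.5 Mb after that. In no-lymphoma mice the means of all bins lay between 0.11 and 0.27, and with the sign of scan batch 2 turned between 0.19 and 0.55. The first 1 Mb stood above the last 1 Mb in all 8 lymphoma mice, by 0.016 at the lowest, 0.84 at the median and 2.05 at the highest. The same measure in no-lymphoma mice was -1.49 at the lowest, 0.03 at the median and 1.57 at the highest, so the groups overlap. With the sign of scan batch 2 turned the no-lymphoma values were -0.09, 0.05 and 1.57. The slope was steepest in lymphoma mice 3 and 8, with 3.24 and 2.97 in the first 1 Mb against 1.31 and 0.92 in the last. In lymphoma mouse 4 both ends were alike, with 1.83 in the first 1 Mb and 1.81 in the last.

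**Figure D2:**
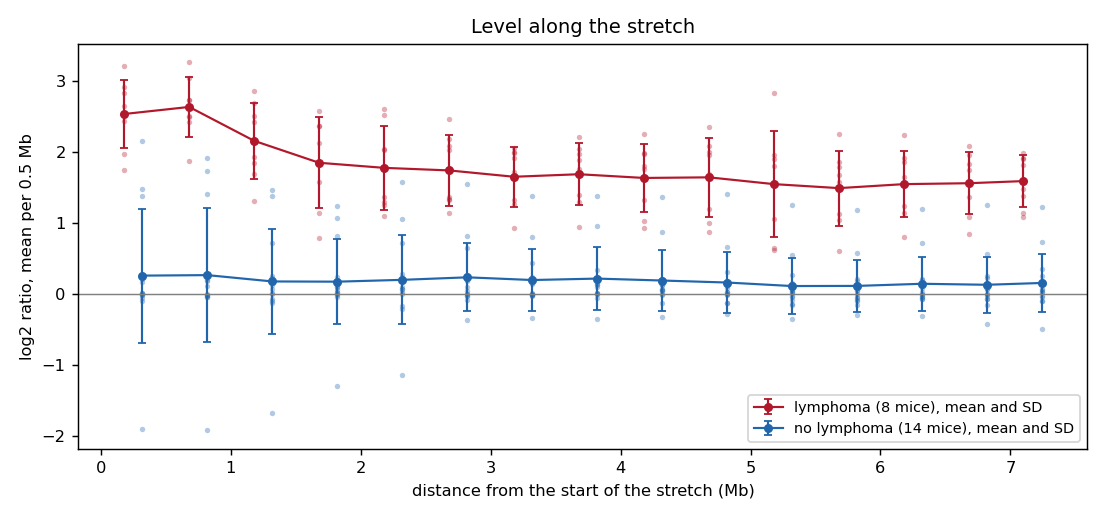
The mean log2 ratio per 0.5 Mb is plotted against the distance from the start of the stretch in Mb, as mean and SD over mice with a small point per mouse, lymphoma in red and no lymphoma in blue. The lymphoma mean is highest in the first 1 Mb, at 2.53 and 2.63, and lies between 1.49 and 1.85 from 1.5 Mb on.

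The mean level in lymphoma mice was highest at the proximal end of the stretch. The highest segment that touches the stretch had a level of 2.20 at the lowest, 2.77 at the median and 3.25 at the highest in lymphoma mice, against -0.33, 0.04 and 2.16 in no-lymphoma mice. The highest no-lymphoma values, 2.16 in mouse 11 and 1.93 in mouse 14, lay just below the lymphoma range. In lymphoma mice 1, 2, 3, 5, 6 and 8 this segment lay between 39.79 and 41.97 Mb, and all 6 segments hold Ero1a, Psmc6, Styx and Gnpnat1. Lymphoma mouse 7 had a segment at 2.69 from 40.10 to 42.08 Mb and its highest one next to it, 14 probes from 42.08 to 42.14 Mb at 2.94 over Cnih1 and Gmfb. Lymphoma mouse 4 differed from the others, with its highest segment at 2.20 from 47.16 Mb into the receptor locus and 2.18 from 44.59 to 45.12 Mb within the stretch. In lymphoma mouse 2 a level of 2.83 from 44.77 to 45.58 Mb came close to its summit of 2.95.

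Probes in segments of 1.5 or more in all 8 lymphoma mice ran without a break from 40072611 to 41081218, with 121 probes. This interval, called the summit below although it is no local maximum in lymphoma mouse 4, holds Ptgdr, Ptger2, Txndc16, Gpr137c, Ero1a, Psmc6, Styx, Gnpnat1, Fermt2 and Ddhd1. Segments of 2 or more were shared by the 7 lymphoma mice other than mouse 4 over 52 probes from 40590185 to 40878504, which start before Ero1a and end beyond Fermt2. Over the 115 probes from 40178918 to 41081218, where at least 6 lymphoma mice had segments of 2 or more, the lymphoma mean was 2.61 ± 0.43 (1.85 at the lowest, 2.59 at the median and 3.25 at the highest). No-lymphoma mice stood at 0.26 ± 0.93 there (-1.92, 0.04 and 1.82). The highest no-lymphoma values were 1.82, 1.78 and 1.39 in mice 11, 14 and 9, below every lymphoma mouse as labelled. With the sign of scan batch 2 turned the array labelled no-lymphoma mouse 1 reads 1.92, above lymphoma mouse 4 (1.85), and the no-lymphoma mean is 0.54 ± 0.79.

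The shape of each lymphoma was set beside the mean profile of the other 7 over 74 bins of 0.1 Mb. As a description, over bins of the same arrays whose neighbours share segments, r was 0.93 in lymphoma mouse 1 and between 0.47 and 0.80 in mice 2, 3, 5, 6, 7 and 8. It was 0.02 in lymphoma mouse 4, which had no summit in the first Mb. Against the mean of all 8 lymphomas, no-lymphoma mice 14, 8, 9 and 11 had r of 0.88, 0.68, 0.66 and 0.65. The array labelled no-lymphoma mouse 1 had r of -0.88, opposite in sign.

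**Figure D3:**
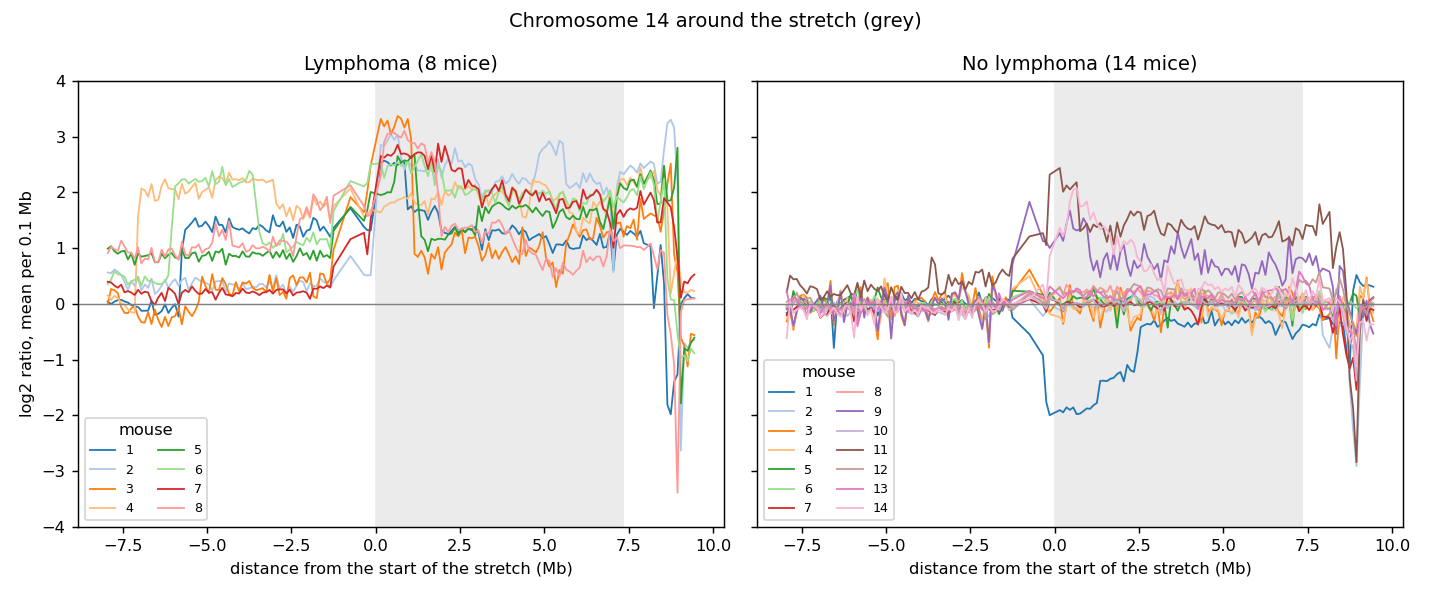
Log2 ratios averaged per 0.1 Mb are drawn for each mouse against the distance from the start of the stretch in Mb, with lymphoma mice on the left, no-lymphoma mice on the right and the stretch shaded in grey. The highest points of the lymphoma lines in the first Mb of the stretch lie between 1.92 (mouse 4) and 3.37 (mouse 3), those of no-lymphoma mice 9, 11 and 14 at 1.68, 2.44 and 2.08, and the array labelled no-lymphoma mouse 1 runs downwards.

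Among the no-lymphoma mice, mice 9, 11 and 14 had gains at the same position as the lymphoma mice. In mouse 11 the level was 2.16 over 83 probes from 39.81 to 40.70 Mb and between 1.21 and 1.58 over the rest of the stretch. Mouse 9 stood at 1.35 from 38.79 to 40.97 Mb and at 0.71 from 40.98 to 48.63 Mb. Mouse 14 reached 1.93 over 85 probes from 40.44 to 40.98 Mb and then came down in steps to 1.46, 1.10, 0.70, 0.41 and 0.23, so that 46.6% of its probes were called gained. Mice 8, 12 and 13 had small shifts under the gain threshold over most of the stretch, with means of 0.14, 0.19 and 0.17 and 669, 681 and 650 of 813 probes above 0. These shifts began at 39.79, 39.80 and 39.12 Mb in mice 8, 12 and 13. At the distal end mice 12 and 13 also had a segment called a gain that ran past the stretch. It stood at 0.41 from 47.22 to 47.9 Mb in mouse 12 and at 0.46 from 47.21 to 47.59 Mb in mouse 13. These gains covered 2.34% and 2.71% of the 813 probes. In mice 2, 3, 4, 5, 6, 7 and 10 the mean lay between -0.06 and 0.02.

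The array labelled no-lymphoma mouse 1 had losses where the others had gains. Its level was -0.65 from 38.79 Mb, -1.90 from 39.70 to 41.29 Mb, -1.24 from there to 42.47 Mb and -0.33 from there to 47.05 Mb. Its first steps down lie where other arrays step up, and its Atm probe likewise had the other sign. Whether its labels or dyes were exchanged was not tested. With the sign of scan batch 2 turned, 3 no-lymphoma mice (1, 9 and 11) were called gained over the stretch.

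Several arrays changed level between the same neighbouring probes. Steps of 0.5 or more between the probes at 38702232 and 38791444 went upwards, by up to 1.71, in 4 lymphoma mice (3, 5, 6 and 7) as well as no-lymphoma mice 9 and 11. The array labelled no-lymphoma mouse 1 dropped by 0.69 there. The next group lay between 39686772 and 39806307, with lymphoma mouse 7 and no-lymphoma mice 11 and 14 upwards and the array labelled no-lymphoma mouse 1 downwards. A further 6 upward steps, of 0.58 to 2.42, lay between 39916021 and 40178918 in lymphoma mice 1, 2, 3, 7 and 8 and no-lymphoma mouse 14. In lymphoma mouse 2 this step was the largest, with 0.53 before it and 2.95 after it.

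Between 38.79 and 39.79 Mb the array has only 16 probes, 62.1 kb apart on average, against 8.94 kb in the stretch. These 16 probes were bright in the wildtype channel, with a median of 4.22 times that of the array, against 0.966 times for the stretch. Lymphoma mice averaged 1.46 ± 0.51 over them, against 0.11 ± 0.52 in no-lymphoma mice. The lymphoma value lies between the 0.81 of the probes from 32 Mb up to this interval and the 1.78 of the stretch. What the brightness of these probes contributes to the steps was not tested. From 39916021 to 40072611 there is no probe, so a step placed there can lie anywhere in that gap.

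The steps down from the high levels of the summit lay at different places, some inside the summit and some beyond it. They were at 40.71 Mb in lymphoma mouse 2 (by 0.45), at 40.88 Mb in lymphoma mouse 1 (by 0.84), at 41.09 Mb in lymphoma mouse 3 (by 2.26), and at 41.25 Mb in lymphoma mouse 5 (by 1.35). Lymphoma mouse 8 stepped down by 0.29 at 40.98 Mb and by 1.39 at 41.85 Mb, and lymphoma mice 6 and 7 at 41.97 and 42.15 Mb. In no-lymphoma mice 11, 9 and 14 they lay at 40.70, 40.98 and 40.99 Mb. The stretch was made of 7.38 ± 3.16 segments in lymphoma mice (3 to 11) and 2.86 ± 2.57 in no-lymphoma mice (1 to 10). The penalty for a step rises with the noise of the array. The noisiest arrays, no-lymphoma 3, 4 and 9 (0.55, 0.49 and 0.51), had 1, 1 and 2 segments. No-lymphoma arrays 6 and 10, with a noise of 0.14, also had 1 segment. What noise contributes to the counts was not tested.

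Near the distal end a short interval stood apart in 4 arrays. In lymphoma mouse 2 the segment of 6 probes from 47058539 to 47102280 stood at 0.20 between neighbours at 2.02 and 1.99. Its last probe, of the secreted ribonuclease Ang4, read 1.29 in this mouse, the lowest of the 8 lymphoma values for Ang4. These are the 6 probes that were not in a gain in all lymphoma mice. In lymphoma mouse 7 10 probes from 46925475 to 47090947 stood at 1.04 between 1.65 on either side. In the array labelled no-lymphoma mouse 1 11 probes from 47055184 to 47136058 stood at -0.85 between -0.33 and -0.37, and in no-lymphoma mouse 14 5 probes from 47075450 to 47107558 stood at 0.91 between 0.23 and 0.10. The interval was picked after its values were seen.

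The gains extended past the limits of the stretch on both sides. Under the gain threshold they began between 17.27 and 38.79 Mb in lymphoma mice, next to Nid2 in mice 2 and 8, Arhgef3 in mouse 5, Grid1 in mouse 4, Ccser2 in mouse 1, Ghitm and Nrg3 in mouse 3, and after Sftpd in mouse 7. Amplified runs began in Grid1 in mouse 4, before Ccser2 in mice 1 and 6, after Wnt5a in mouse 8 and after Sftpd or 4930503E14Rik in mice 2, 3, 5 and 7. In mouse 8 the segment before 37.65 Mb stood at 1.01, just over the threshold of 1, and the one after it at 1.75. Over the neuregulin gene Nrg3 the lymphoma level was 1.01 ± 0.73, from 0.21 in mouse 7 to 2.21 in mouse 4, against -0.03 ± 0.12 in no-lymphoma mice. Distally the run of gains ended inside the Tcra/Tcrd locus, between 48.21 and 49.01 Mb, in 7 lymphoma mice and no-lymphoma mice 9 and 11. In lymphoma mouse 2 the run ended at 47.06 Mb in the interval described above, and the level was high again up to 48.98 Mb. Gains also came back beyond the end of the run in lymphoma mouse 1 (0.90 and 0.35, up to 48.63 Mb), mouse 4 (0.84, up to 49.03 Mb) and mouse 7 (0.44, from 49.02 Mb).

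Probes just outside the limits were high as well. The last probe before 40 Mb read 1.34 ± 0.46 in lymphoma mice, against 0.11 ± 0.51 in no-lymphoma mice. This probe was bright, at 4.52 on the log2 scale relative to the median wildtype signal of the array. What its brightness contributes was not tested. The probe before it, at 39842381, read 1.89 ± 0.68 in lymphoma mice, against 0.20 ± 0.96 in no-lymphoma mice. The first probe inside read 1.97 ± 0.72 in lymphoma mice, against 0.02 ± 0.97 in no-lymphoma mice. At the distal limit the last probe inside, in Zfp219, read 1.32 ± 0.70 in lymphoma mice, against 0.07 ± 0.36 in no-lymphoma mice. The first probe outside read 1.93 ± 0.73 in lymphoma mice, against 0.24 ± 0.62 in no-lymphoma mice.

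The part of chromosome 14 before 30 Mb lies outside the stretch and was tested. In lymphoma mice 2, 5, 6 and 8 the run of gains that reaches the stretch began within this part. Its level is therefore not independent of the gain that chose the stretch. Its 2538 probes averaged 0.15 ± 0.17 in lymphoma mice, against 0.00095 ± 0.070 in no-lymphoma mice (SD, n = 8 and n = 14). The values ran from -0.0096 over a median of 0.06 to 0.43 in lymphoma mice, and from -0.04 over -0.02 to 0.24 in no-lymphoma mice. Lymphoma mice 2, 5 and 8 were high, at 0.35, 0.28 and 0.43. Their gains began within this part, as did that of mouse 6, which stood at 0.08. All lymphoma mice but 2, 5 and 8 lay between -0.0096 and 0.08, beside a median lymphoma mean of 0.06 over all autosomal genes. As labelled, no-lymphoma mouse 11 alone of its group was above 0, and with the sign of scan batch 2 turned mice 1, 3 and 4 were as well, at up to 0.02. The difference of 0.15 passed the test against the spread between mice (exact two-sided permutation p = 0.00767 over 319770 splits). Above 0 lay 7 of 8 lymphoma mice, against 1 of 14 no-lymphoma mice (4 of 14 with the sign turned). Several values lay close to 0, with -0.0011, -0.0012 and -0.0035 in no-lymphoma mice 12, 6 and 13 and 0.015 in lymphoma mouse 3. The count of mice above 0 therefore adds little to the difference. Blocking on scan batch gave a difference of 0.21 (exact permutation p = 0.00347, the smallest that 288 arrangements allow). Within batches 1, 3, 5 and 6 it was 0.03, 0.32, 0.37 and 0.07. The stretch stood above this flank by 1.63 ± 0.41 in lymphoma mice and by 0.18 ± 0.45 in no-lymphoma mice.

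**Figure D4:**
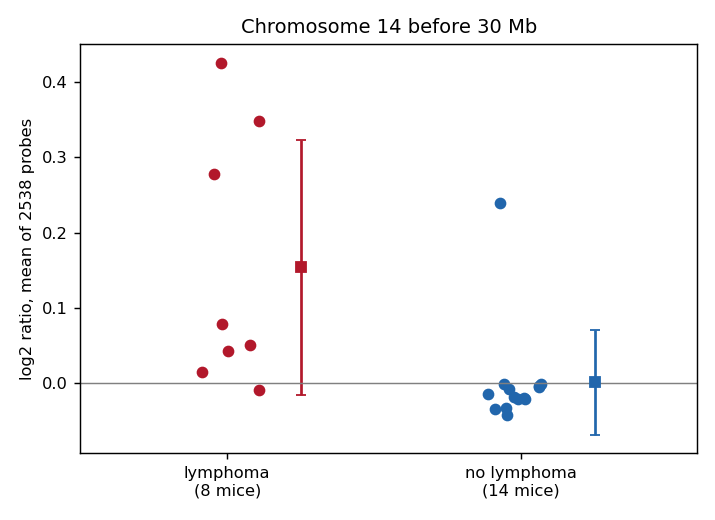
Each point is the mean log2 ratio of chromosome 14 before 30 Mb in 1 mouse, lymphoma on the left and no lymphoma on the right, with squares and bars for mean and SD. Lymphoma mice 2, 5 and 8 lie between 0.28 and 0.43, and all no-lymphoma mice but number 11 lie below 0 as labelled.

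The genes of the stretch followed the level of the DNA around them. Of 119 genes with all their probes in the stretch, all had a lymphoma mean above 0.25 (12.8% of all 24624 autosomal genes did) and 117 had one above 1 (0.654% of all genes). Outside the stretch 44 of 24505 genes exceeded 1. The median gene of the array had a lymphoma mean of 0.06 and a no-lymphoma mean of 0.0041. Of the 119 genes, 50 had 3 or more probes, and 36 of those carry a RefSeq symbol. These 36 had lymphoma means from 1.35 to 2.84 with a median of 1.73, against a median no-lymphoma mean of 0.19, and 23 of them were above 1 in all 8 lymphoma mice. In 6 of the 119 genes every lymphoma mouse lay above every no-lymphoma mouse (0.0569% of all genes did). With the sign of scan batch 2 turned the same 6 did not overlap. Those 6 were Fermt2, Ttc5, Ndrg2 and the entries AK015914, LOC434459 and AY358078. Genes next to each other lie in the same segments, so they are not independent.

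Among genes with 3 or more probes and a RefSeq symbol, the 8 highest all lay in the summit. Psmc6, an ATPase subunit of the proteasome cap, read 2.0 at the lowest, 2.87 at the median and 3.69 at the highest in lymphoma mice, against -2.03, 0.13 and 2.36 in no-lymphoma mice. No-lymphoma mice 11 and 14, at 2.36 and 2.30, lay within the lymphoma range, and mouse 9 at 1.39 lay below it. Turned in sign, the array labelled no-lymphoma mouse 1 (2.03) would overlap too. The means were 2.84 ± 0.48 in lymphoma mice, against 0.37 ± 1.09 in no-lymphoma mice, and the lymphoma mean is 7.18 times the wildtype amount. Gnpnat1, an acetyltransferase of amino sugar synthesis, read 2.03, 2.78 and 3.56 in lymphoma mice against -2.03, 0.05 and 2.06 in no-lymphoma mice. As labelled, no-lymphoma mouse 14 alone, at 2.06, overlapped with the lymphoma mice, and turned in sign the array labelled no-lymphoma mouse 1, at 2.032, would overlap with the lowest of them, at 2.029. Ero1a, which makes disulphide bonds in the endoplasmic reticulum, read 1.97, 2.73 and 3.29 in lymphoma mice against -1.89, 0.09 and 2.11 in no-lymphoma mice, with mice 11 and 14 in the overlap.

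The other 5 genes of the summit with 3 or more probes and a RefSeq symbol were close to these. Styx, a catalytically inactive phosphatase, averaged 2.65 ± 0.47 in lymphoma mice, against 0.22 ± 0.997 in no-lymphoma mice. Fermt2 (kindlin-2), which activates integrins, averaged 2.61 ± 0.38 in lymphoma mice, against 0.28 ± 0.89 in no-lymphoma mice. Ptger2, a prostaglandin E2 receptor, stood at 2.58 ± 0.50 in lymphoma mice, against 0.26 ± 0.88 in no-lymphoma mice. Txndc16, a thioredoxin-domain protein of the secretory path, stood at 2.58 ± 0.51 in lymphoma mice, against 0.32 ± 0.97 in no-lymphoma mice, and Ddhd1, a phospholipase, at 2.56 ± 0.54, against 0.29 ± 0.92. As labelled, no-lymphoma mice 11 and 14 overlapped with the lymphoma mice in Styx and Txndc16, mouse 11 in Ptger2 and mouse 14 in Ddhd1. Turned in sign, the array labelled no-lymphoma mouse 1 would overlap in Styx, Txndc16 and Ddhd1. In Fermt2 no mouse overlapped either way. The order of these 8 genes was not tested.

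Outside the summit 2 genes were the highest of those with 3 or more probes and a RefSeq symbol. They were Arhgef40, at the distal limit, and Cnih1, which helps cargo leave the endoplasmic reticulum. Arhgef40 averaged 1.91 ± 0.56 in lymphoma mice, against 0.20 ± 0.46 in no-lymphoma mice. Cnih1 averaged 1.85 ± 0.68 in lymphoma mice, with 2.94 in mouse 7 and 2.68 in mouse 2, and 0.16 ± 0.65 in no-lymphoma mice. Gch1, the first enzyme of tetrahydrobiopterin synthesis, stood at 1.82 ± 0.57 and Lgals3, the sugar-binding protein galectin-3, at 1.82 ± 0.58, against 0.26 ± 0.57 and 0.27 ± 0.52 in no-lymphoma mice. The 3 lowest with a RefSeq symbol were Rnase6, a secreted ribonuclease, and the odorant receptor genes Olfr736 and Olfr745. Their lymphoma means were 1.56 ± 0.56, 1.51 ± 0.47 and 1.35 ± 0.46. Their no-lymphoma means were 0.09 ± 0.51, 0.12 ± 0.35 and 0.03 ± 0.40.

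**Figure D5:**
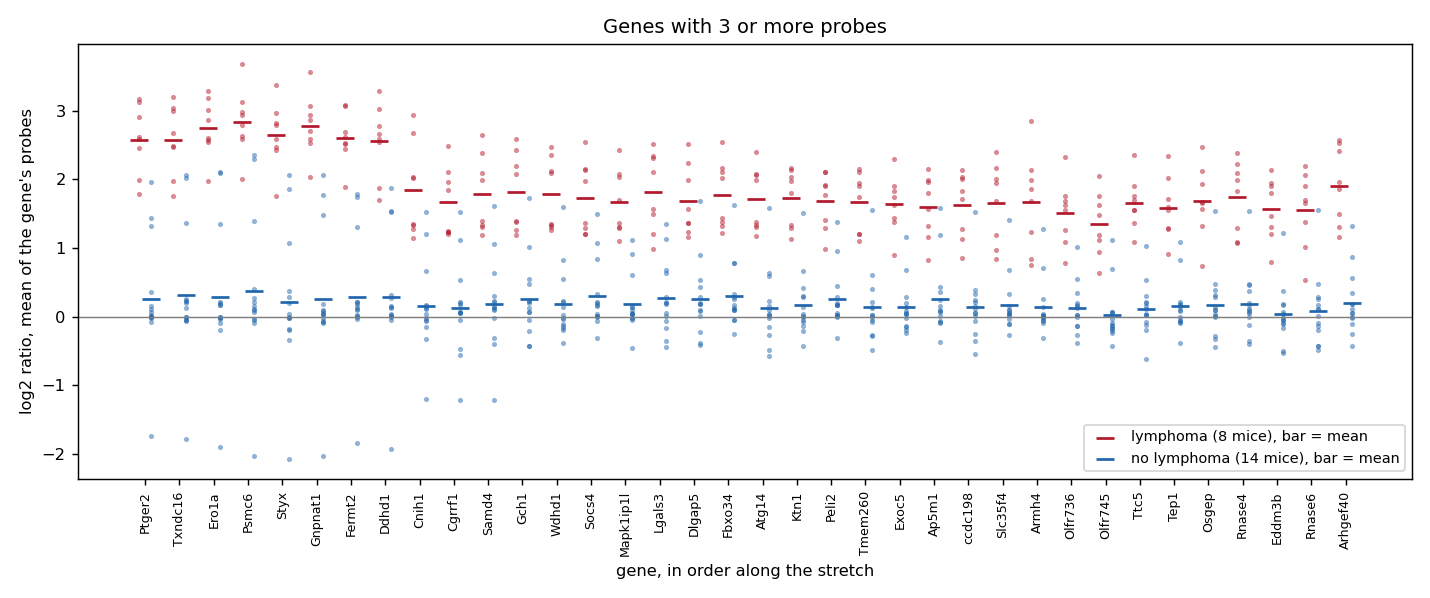
Mean log2 ratios of the 36 genes with 3 or more probes and a RefSeq symbol are shown in order along the stretch. Points are mice and bars are group means, lymphoma in red on the left of each gene and no lymphoma in blue on the right. The 8 genes from Ptger2 to Ddhd1 have lymphoma means of 2.56 to 2.84, and the other genes have means of 1.35 to 1.91.

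Read by role, the medians of the lists ran from 1.52 to 2.56, beside 1.73 for the 36 genes. Counts of list members above 1 stand beside 98.3% of the genes of the stretch and 0.654% of all genes, so they show nothing particular to a list. Of 5 measured genes of DNA repair and genome upkeep, all 5 had lymphoma means above 1, with a median of 1.70 against a median no-lymphoma mean of 0.17. They are Wdhd1, a replication factor, Parp2 and Apex1, which act in the repair of single-strand breaks and lost bases, Tep1, a telomerase-associated protein, and Osgep, an enzyme of transfer RNA modification. Apex1 (1 probe) read 0.98 at the lowest, 1.71 at the median and 2.50 at the highest in lymphoma mice, and averaged 1.70 ± 0.52. The cell cycle list had 2 measured genes, Wdhd1 at 1.79 ± 0.52 and Dlgap5, a mitotic spindle protein, at 1.68 ± 0.51.

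All 6 proteasome and ubiquitin genes exceeded 1, with Psmc6 and Styx in the summit and Cgrrf1, Socs4, Fbxo34 and Peli2 between 1.67 and 1.78. All 6 measured genes of the secretory path did as well, with Ap5m1, an adaptor subunit, the lowest and Ero1a the highest. Of 8 genes for signals and their receptors 7 exceeded 1, with a median of 1.88 against 0.24 in no-lymphoma mice. Ptgdr, a prostaglandin D2 receptor, stood at 2.43 ± 0.67 and Gpr137c at 2.49 ± 0.66 in lymphoma mice, each by 1 probe. The exception was Bmp4, a secreted growth factor.

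All 3 measured RNA-binding genes exceeded 1 (Samd4 at 1.79 ± 0.56 over 30 probes, Rnase4 at 1.75 ± 0.52 and Ang4 at 1.92 ± 0.41). Of the transcription factors listed only Otx2, a homeobox gene, has all its probes in the stretch, at 1.61 ± 0.53. The list of adhesion and cytoskeleton had 3 measured members, Fermt2, Arhgef40 and the phospholipase Ddhd1. Their median was 2.56, which is the value of Ddhd1. The measured genes of sugar metabolism and acetyl transfer (Gnpnat1, Slc35f4 and Pnp) had a median of 1.65. All members of both lists were above 1. Pnp, the purine nucleoside phosphorylase that T cells depend on, read 1.53 ± 0.58 by 1 probe, and Slc35f4 1.65 ± 0.58 over 32 probes. The 15 odorant receptor genes had lymphoma means from 1.32 to 1.80 with a median of 1.52, against 0.09 in no-lymphoma mice. Of the eosinophil-associated ribonucleases, Ear4 read 1.59 ± 0.52 in lymphoma mice. Rnase2a, which RefSeq also lists as Ear11, read 1.38 ± 0.55 by 1 probe, against -0.19 ± 0.73 in no-lymphoma mice. Odorant receptor and ribonuclease genes have close copies, so their probes may read more than 1 gene.

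Single probes could fall out of line. Of the 813 probes 11 lay more than 0.8 from the running median of 15 probes in the lymphoma mean, all of them below it, and 10 of the 11 were also below it in the no-lymphoma mean. The Bmp4 probe, picked after its value was seen, read 0.18 at the lowest, 0.71 at the median and 1.59 at the highest in lymphoma mice, 1.18 below the running median. In no-lymphoma mice it averaged -0.15 ± 0.42, 0.37 below the running median there. The other gene with a lymphoma mean under 1 was M84563, at 0.56 ± 0.43 over 2 probes, of which the one at 46288192 read -0.22 ± 0.63 and the one at 46296587 read 1.33 ± 0.68. The probe at 46288192 was dim, at -5.16 on the log2 scale relative to the median wildtype signal of the array, and 5 further probes among the 11 stood at -4.19 to -5.23. Across the 813 probes the deviations from the running median in lymphoma and no-lymphoma means had r of 0.55, and the GC content and the lymphoma deviation had r of -0.03, both as descriptions over probes of the same arrays.

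Among the 8 lymphomas the level of the stretch was set against 6 other measures, and no relation passed the test after adjustment over the 6. The closest was the mean of the Tcra/Tcrd locus, with Pearson's r of 0.71 (exact permutation p = 0.0514, adjusted 0.199) and Spearman's rho of 0.62 (exact permutation p = 0.115, adjusted 0.345). This locus lies just beyond the stretch and some segments span both, so its level is not independent of that of the stretch. Without the 2 mice farthest from the median level r was 0.45 (exact permutation p = 0.399). Array noise gave r of -0.63 (exact permutation p = 0.0663, adjusted 0.199) and rho of -0.69 (exact permutation p = 0.0694, adjusted 0.345), and -0.64 without the 2 mice. For the mean of Dnah11, a dynein gene on distal chromosome 12, r was -0.48 and rho -0.48 (exact permutation p = 0.205 and 0.243, adjusted 0.409 and 0.486). For the chromosome 15 median, Nrg3 and chromosome 14 beyond the receptor locus r was 0.17, -0.12 and 0.0037, with rho of -0.12, -0.29 and -0.14 (exact permutation p of r between 0.755 and 0.994, of rho between 0.501 and 0.793, adjusted 0.926 to 0.994 and 0.751 to 0.793). Without the 2 mice r was -0.50 for Dnah11, -0.50 for chromosome 15, 0.16 for Nrg3 and 0.24 for chromosome 14 beyond the locus. No scan batch holds more than 3 lymphoma mice, too few for a correlation, and none was computed within batches.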

How the data were processed

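Per the labels, each of the 22 arrays (Agilent mouse genome CGH 244A) carries Cy5-labelled DNA of 1 Atm-deficient mouse and Cy3-labelled wildtype DNA. The deposited scanner files give the spot brightness as intensity in both channels. Per the file headers, the processed intensity is background-subtracted and dye-normalised by Feature Extraction 9.1.3.1 (protocol CGH-v4_91), and the submitters' processing notes name version 9.1. The deposited value table holds a log10 ratio of red over green identical to the ratio in the scanner files (differences of 0), which settles its scale and direction, and it served as an alternative. The sources used here name no build for the coordinates.

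Log2 ratios of red over green processed intensity were averaged per probe, without outlier-flagged spots, and centred on each array's autosomal median, with no loess or quantile step. Probes were joined to all arrays by their feature number. Gene names are those of the files, updated through RefSeq (GRCm38.p6, names only). Segments were found by optimal partitioning (a penalty factor of 3 on log probe number and squared noise, at least 5 probes, single probes limited to 4 noise SD from the 7-probe running median), coded with numpy 2.4.6 and numba 0.67.0 (Python 3.11.15) and tested on simulated data. Figures used matplotlib 3.10.9. Permutation tests were exact. Replicate numbers only name mice. Normexp (limma 3.58.1, R 4.3.3, offset 50) used median spot signals, since mean signals were not in every file.

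The members and gene lists were chosen with earlier results of these data known. Named genes are the 12 highest and 3 lowest lymphoma means among genes with 3 or more probes and a RefSeq symbol, genes at the highest segments and at the ends of gains, and the lists by role. The gene at the start of the gain in lymphoma mouse 6 is not reported here. Alternatives were normexp, centring on the mode, the deposited ratios, dim spots left out, signs turned, scan batch 2 or the noisiest arrays left out, scan batch as a block and other settings of the segmentation. Sex chromosomes were left out of the background counts.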

Additional observations from a re-analysis of the deposited data

Results flagged for a closer look

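In the 8 lymphoma mice 42 measures were checked for a mouse far from the others, and chance alone sets apart about 1 in 20. None of the levels along the stretch and none of its named genes stood apart, but 3 accompanying measures did. Lymphoma mouse 8 had a chromosome 15 median of 0.15, against 0.42 to 0.57 in the other 7. Lymphoma mouse 1 had a Dnah11 mean of -0.33, against -0.97 to -0.84 in the others. Lymphoma mouse 3 had a noise of 0.37, against 0.15 to 0.23 in the others. Groups of 14 mice were not checked in this way.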

How the results depend on the processing

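Gains over the stretch were called in 8 lymphoma mice under all settings that kept the 8 arrays. In no-lymphoma mice 2 were called, 5 at a gain threshold of 0.15 (mice 12, 13 and 14 were added), 1 with normexp (mouse 9 was lost) and 1 with ratios of no-lymphoma mice 3, 4 and 9 turned. The mean level difference of 1.603 was 2.03 within scan batch 3 and 0.70 within batch 5, and the highest-segment difference of 2.31 was 2.77 and 1.69 there. Otherwise these differences ran from 1.47 to 1.91 and from 2.14 to 2.61. The flank difference kept its direction and its side of 0.05 under all 10 alternatives, at 0.10 to 0.21 (exact permutation p of 0.0032 to 0.0176). No relation among lymphomas passed under any alternative, and 5 values changed sign. With normexp the r of Dnah11 was -0.80 and that of the chromosome 15 median 0.62, against -0.48 and 0.17. With normexp Nrg3 gave r of 0.36 and array noise 0.33. For chromosome 14 beyond the receptor locus r was -0.056 centred on the mode, -0.30 without the noisiest arrays and -0.47 with normexp. The cause was not tested. The median start of the gains in lymphoma mice ran from 28.09 to 33.59 Mb (30.51 Mb in the report's setting), and their median end from 48.63 to 48.82 Mb. Dim probes have little signal over background, and leaving out dim spots moved the level difference to 1.61. No paired analysis was possible because each array is of a different mouse and the labels name no pairs.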
